A study of Rattus norvegicus with 24 samples.

Results

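Peroxins are the proteins that build and divide peroxisomes, and the 9 genes described here are the peroxins Pex2, Pex3, Pex5, Pex6, Pex11a, Pex14, Pex16 and Pex19 and the peroxisomal membrane protein gene Pxmp2. They were chosen by name, and each was read from the probe set that the array's annotation pairs with that symbol alone. All 9 were on the array, with 11 such probe sets, out of 17245 genes read from 29214 probe sets. For Pex6 and Pex19, which had more than 1, the probe set with the highest mean was kept. The RNA came from whole livers of male Wistar rats with no labelled genetic change and no agent other than the diet. The groups were 5% protein for 4 weeks, 20% protein for 4 weeks, 5% protein for 1 week and 20% protein for 1 week, with 6 animals each and 1 array per animal, and the labels give no age. The 20% diet is the normal one, per the design text. The titles and treatment labels give these percentages and times, whereas the sample descriptions hold codes with 4 and 18, and the design text speaks of 4 weeks for all animals. The groups follow the titles.

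Peroxisomes of the liver shorten very long and branched fatty acids, make bile acid precursors and break down hydrogen peroxide. Their membrane proteins are inserted by Pex19, which carries them in the cytosol, Pex3, on which Pex19 docks, and Pex16, which recruits Pex3. Matrix enzymes with a C-terminal signal called PTS1 are bound by the receptor Pex5, which docks on Pex14 in the membrane. Pex2, a ring ligase, tags the receptor with ubiquitin, and the ATPase Pex6 helps to pull it back out. Pex11a shapes the membrane for elongation and division, and in rodents its gene is known to respond to PPARa, the receptor through which fenofibrate acts. Pxmp2 forms a pore for small solutes in the peroxisomal membrane.

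All values below are log2 of the authors' RMA intensity, RMA being a robust average over the probes of a probe set after background subtraction and quantile normalization. A gene is said to have risen or fallen where limma's test, adjusted over all 17245 genes by the Benjamini-Hochberg method, gave a p below 0.05. Differences are 5% minus 20% protein or 4 weeks minus 1 week and carry standard errors. Median intensity per array was 42.4 to 45.5, and within a group the correlation of arrays was 0.984 to 0.995. Ordered by the animal numbers in the titles, the animals form 4 stretches of the same time. These are called runs here, and the labels do not call them a batch. Animals 73 and 74 have consecutive numbers, so the cut between the third and the fourth run is the change of time. The first run holds 5 animals on 5% and 2 on 20% protein, all from 4 weeks, and the third run holds 1 and 4. The second and the fourth run, from 1 week, have 3 animals per diet each. The labels do not say whether the animals of a group were housed or processed apart. The p-values set a difference against the spread between these animals and arrays. They cannot part diet or time from anything else that a whole group shared.

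The array sampled liver by its hepatocyte markers, of which 7 of the 10 listed were measured, albumin among them. Their summed intensity was 58698 to 70611 on 5% and 66280 to 76989 on 20% protein at 4 weeks, where 4 of the 7 fell. Kupffer cell and macrophage markers fell in 5 of 7 at 4 weeks, with sums of 2536 to 3209 on 5% and 3707 to 6304 on 20% protein. Erythroid markers fell in 2 of 5 at 4 weeks and in 4 of 5 at 1 week, when their sums were 222 to 1047 on 5% and 809 to 2658 on 20% protein. At 4 weeks the erythroid sums were 175 to 805 on 5% and 350.0 to 1746 on 20% protein. Of the other lists at 4 weeks, 2 of 7 stellate cell markers and 1 of 3 adipocyte markers fell and 2 of 4 cholangiocyte markers rose, and limma called 0 of the endothelial, lymphocyte, muscle and pancreas markers. Of all genes, 12.4% fell and 13.4% rose at 4 weeks, and 2.44% fell at 1 week. RMA values have no zero, so no marker can be listed as absent. The part of these cell types in the results below was not tested. In whole liver, fewer cells of a type and less RNA per cell cannot be told apart.

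The comparison at 4 weeks asks what a long shortage of protein does to the machinery of the peroxisome. Pex11a and Pex14 rose on 5% protein, and Pex5 and Pxmp2 fell. These 4 of 9 genes compare with 25.8% of all genes tested, and with 9 genes the larger share among them was not tested. The 2 that rose compare with 13.4% of all genes, and the 2 that fell with 12.4%. The median difference was -0.09 over the 9 genes and -0.01 over all genes. No member parted the diets completely, against 12.4% of all genes whose groups did not overlap.

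**Figure D1:**
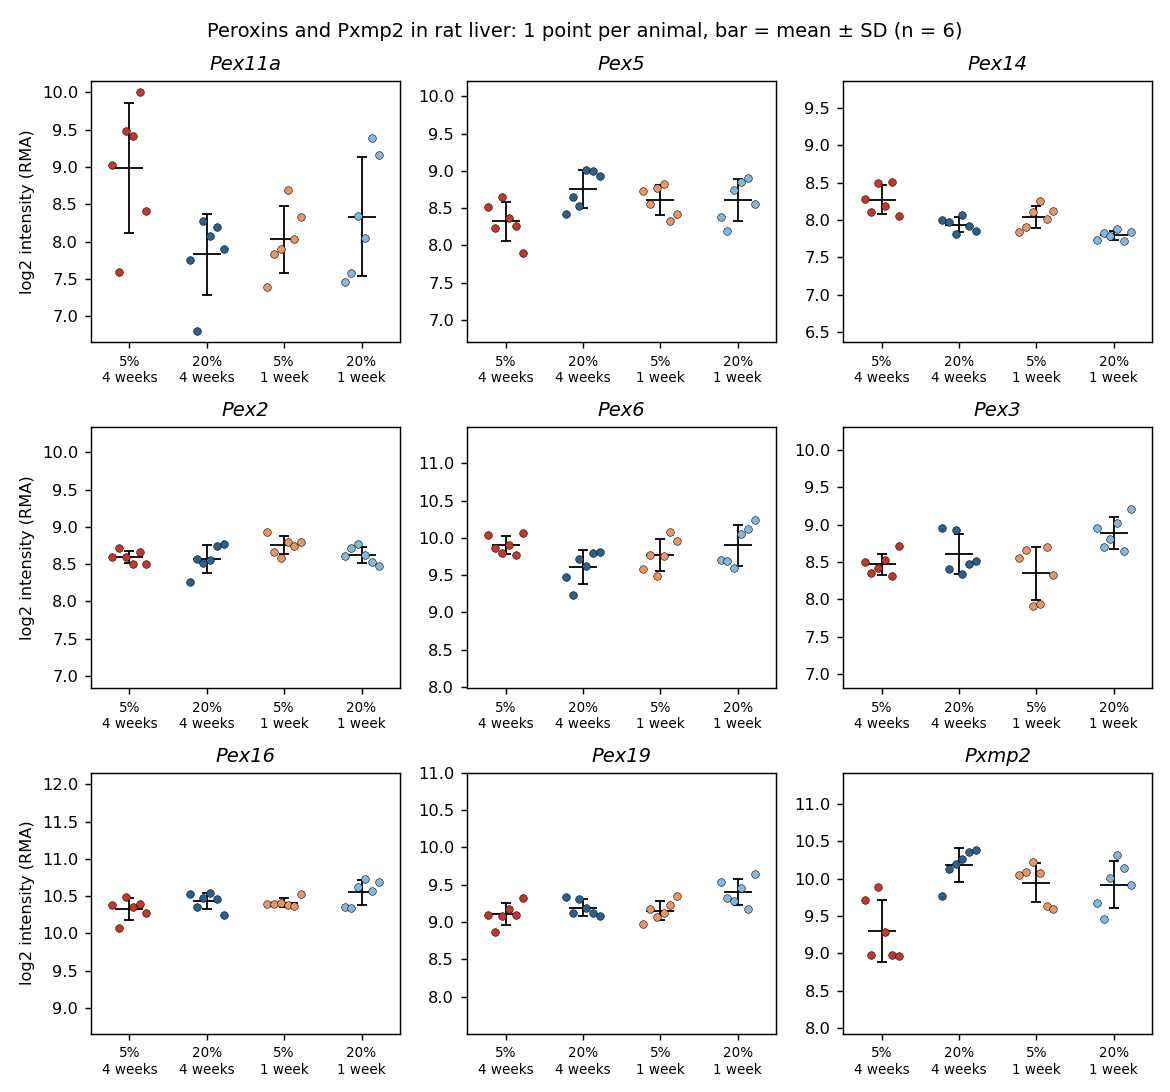
Log2 intensity of the 9 genes in each animal, with the mean and SD of each group of 6. The vertical axes all span the same log2 range, and the left pair of groups in each panel is 4 weeks and the right pair 1 week. Pex11a spreads the most, from 7.59 to 10.01 on 5% protein at 4 weeks, and Pxmp2 shows its lowest values in that group.

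The division gene came first in size. Pex11a (probe set 10722982, a further probe set shared with other symbols being left out) had a lowest, median and highest value of 7.59, 9.22 and 10.01 on 5% protein at 4 weeks, against 6.80, 7.99 and 8.27 on 20% protein. Of the 6 animals on 5%, 5 lay above every animal on 20%, and the sixth, animal 23, lay below all but 1 of them. Pex11a rose by 1.15 ± 0.36, or 2.23-fold (adjusted p = 0.0201, limma, 95% interval 0.40 to 1.91). The difference was 1.83 ± 0.45 in the first run (adjusted p = 0.00748, limma) and 0.31 in the third, where 1 animal stood for 5% protein. With that 1 animal, a difference between the runs cannot be judged. The call was lost without animal 30 of the 20% group (0.95, adjusted p = 0.0597, limma), which had the lowest value, or without animal 32 of the 5% group (0.95, adjusted p = 0.0630, limma), which had the highest.

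The 2 partners of matrix import moved in opposite directions. Pex5 (probe set 10865401), the PTS1 receptor, ran from 7.90 through a median of 8.31 to 8.65 on 5% protein, against 8.42, 8.80 and 9.01 on 20% protein. Of the animals on 5%, 4 of 6 lay below all 6 on 20%. Pex5 fell by 0.44 ± 0.14 on the log2 scale, a ratio of 0.739 (adjusted p = 0.0217, limma). The difference was -0.97 in the third run, for 1 animal on 5% and 4 on 20%. It was -0.13 ± 0.17 in the first run (adjusted p = 0.681, limma). The fall of Pex5 over both runs did not pass without animal 59, that single animal (-0.35, adjusted p = 0.0674, limma). Nor did it pass with run as a covariate (-0.43, adjusted p = 0.0693, limma). Leaving out animal 67, 72 or 73 of the 20% group also ended the call (adjusted p = 0.0570, 0.0557 and 0.0512, limma).

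Pex14 (probe set 10881648), the docking site of Pex5, had 8.06, 8.23 and 8.51 as lowest, median and highest on 5% protein at 4 weeks, against 7.81, 7.95 and 8.07 on 20% protein. Again 5 of 6 animals on 5% lay above all 6 on 20%. Pex14 rose by 0.34 ± 0.08, or 1.26-fold (adjusted p = 0.00305, limma), and the call held without any single animal (adjusted p from 0.00140 to 0.0110, limma). Within runs it was 0.33 ± 0.11 in the first (adjusted p = 0.0525, limma) and 0.15 in the third, for 1 animal on 5%.

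The ligase and the ATPase of receptor recycling did not pass at 4 weeks. Pex6 (probe set 10921677) had 9.77, 9.88 and 10.07 on 5% protein, against 9.23, 9.67 and 9.81 on 20% protein, with 4 of 6 animals on 5% above all on 20%. Its difference was 0.30 ± 0.12 (adjusted p = 0.0741, limma), and it was 0.52 ± 0.11 in the first run (adjusted p = 0.00202, limma) and 0.33 in the third, for 1 animal on 5%. With run as a covariate it passed, at 0.45 ± 0.09 (adjusted p = 6.43e-04, limma). The second Pex6 probe set (10926470) gave 0.20 ± 0.15. Pex2 (probe set 10814379) differed by 0.03 ± 0.08, with a 95% interval of -0.14 to 0.19.

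**Figure D2:**
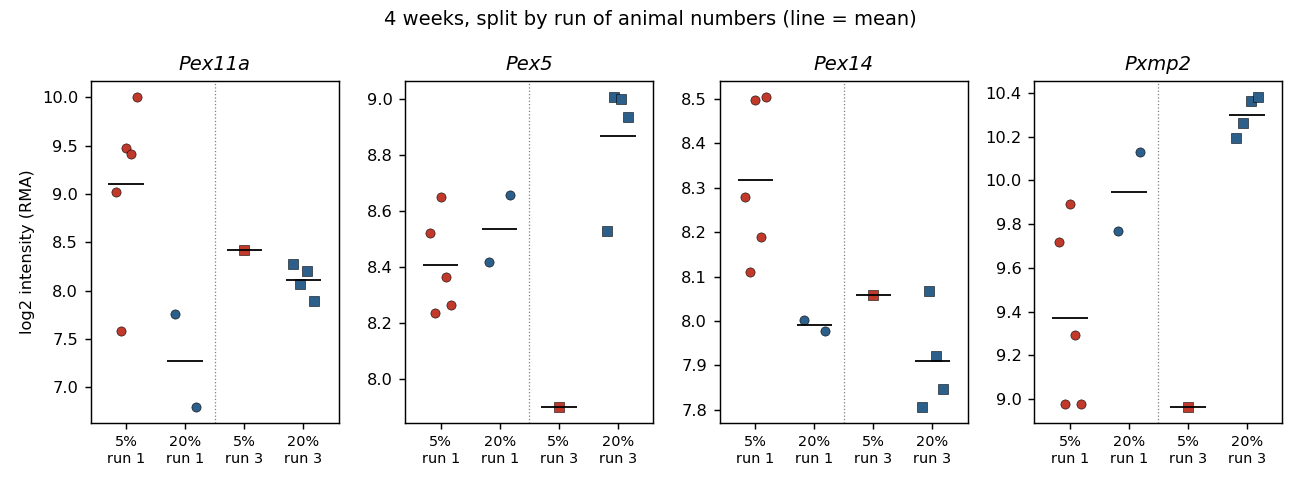
Log2 intensity of the 4 called genes at 4 weeks, by diet and by run of animal numbers, with 1 point per animal and a line at each mean. The vertical axes differ between panels. In the third run 1 animal stands for 5% protein, with the lowest Pex5 (7.90) and the lowest Pxmp2 (8.96) of all animals shown.

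Pxmp2 (probe set 10759402), the pore gene, had the smallest p of the 9 at 4 weeks. It had 8.96, 9.13 and 9.89 as lowest, median and highest on 5% protein, against 9.77, 10.23 and 10.38 on 20% protein. The animals on 5% lay below all on 20% in 5 of 6 cases. Pxmp2 fell by 0.88 ± 0.17 on the log2 scale, to 0.543 of its level on 20% protein (adjusted p = 3.58e-04, limma). Within runs the difference was -0.58 ± 0.21 in the first (adjusted p = 0.0698, limma) and -1.34 in the third, for 1 animal on 5%, so both runs had the same sign. The fall over both runs passed without any single animal. The 5% group at 4 weeks had the lowest Pxmp2 mean of the 4 groups, and the ranges of all 4 overlapped.

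The genes of membrane protein insertion did not pass at 4 weeks. Pex3 (probe set 10716910) differed by -0.13 ± 0.14, Pex16 (probe set 10838022) by -0.11 ± 0.08 and Pex19 (probe set 10765720) by -0.09 ± 0.08. Their 95% intervals were -0.42 to 0.16, -0.27 to 0.05 and -0.27 to 0.09.

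The comparison at 1 week asks for the early response. Pex3 fell on 5% protein, and it was the 1 member of 9 called, against 4.3% of all genes tested. It had 7.92, 8.44 and 8.71 as lowest, median and highest on 5%, against 8.64, 8.88 and 9.21 on 20% protein, and 4 of 6 animals on 5% lay below all on 20%. The fall was 0.54 ± 0.14 on the log2 scale, a ratio of 0.687 (adjusted p = 0.0282, limma). It was -0.45 ± 0.21 in the second run (adjusted p = 0.216, limma) and -0.64 ± 0.21 in the fourth (adjusted p = 0.0625, limma). The call was also lost when any of animals 54, 74 and 76 on 5% or 51, 77 and 79 on 20% protein was left out (adjusted p from 0.0540 to 0.0902, limma). It was lost too with the row letter of the title as a random block (-0.56, adjusted p = 0.0827, limma), and at 1 week no row letter holds both diets.

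Pex19, which docks on Pex3, had 8.97, 9.15 and 9.35 on 5% at 1 week, against 9.17, 9.39 and 9.64 on 20% protein. It differed by -0.25 ± 0.08 and did not pass (adjusted p = 0.0974, limma), and its second probe set (10805254) gave -0.22 ± 0.08. Pex14 differed by 0.24 ± 0.08 (adjusted p = 0.0962, limma), with 5 of 6 animals on 5% above all on 20% protein. The others lay within -0.30 (Pex11a, ± 0.36) and 0.13 (Pex2, ± 0.08), Pex5 at -0.002 ± 0.14 and Pxmp2 at 0.03 ± 0.17. In the second and the fourth run Pxmp2 differed by 0.41 ± 0.21 and -0.36 ± 0.21, and Pex5 by 0.24 ± 0.16 and -0.25 ± 0.16, with no pass for the difference between the runs (adjusted p = 0.122 and 0.231, limma). The median of the 9 genes was -0.13, and that of all genes -0.01, and the diets did not overlap in 0 members and in 2.56% of all genes.

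**Figure D3:**
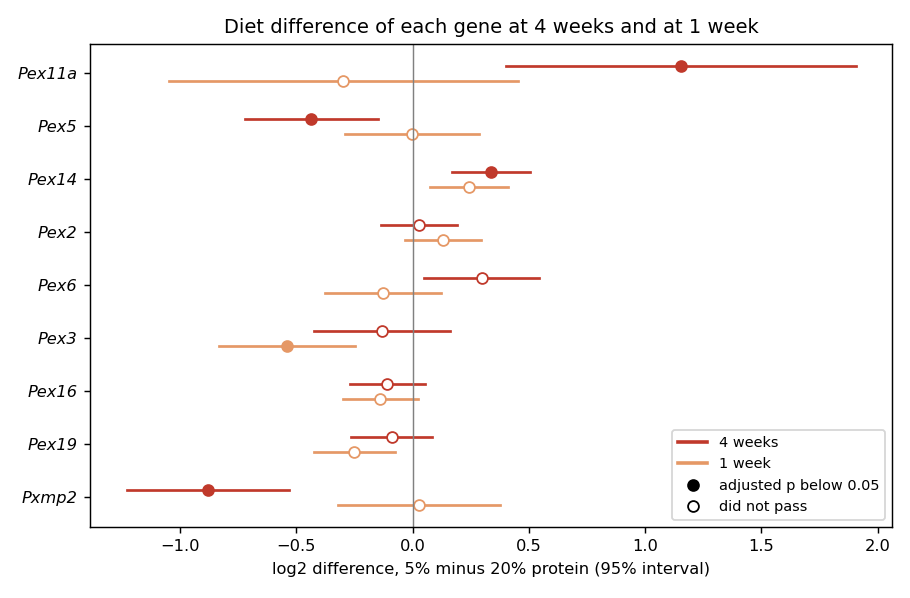
Difference between diets for each gene, with its 95% interval, at 4 weeks (upper line of each pair) and at 1 week (lower line). Filled points passed limma's test over all genes. Pex11a has the widest intervals, and Pex5 and Pxmp2 lie near 0 at 1 week and below 0 at 4 weeks.

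Whether the diet difference itself changed with time was tested as the difference at 4 weeks minus that at 1 week. Pxmp2 was the 1 member called, against 5.75% of all genes (3.54% higher and 2.2% lower), at -0.91 ± 0.24 (adjusted p = 0.0278, limma). Its diet difference was -0.88 at 4 weeks and 0.03 at 1 week. The call was lost without any of animal 32 on 5% and animals 72 and 73 on 20% protein at 4 weeks, or animal 54 on 5% and animal 52 on 20% protein at 1 week (adjusted p from 0.0510 to 0.0542, limma). Pex11a had the larger value, 1.45 ± 0.51, and did not pass (adjusted p = 0.0943, limma). Neither did Pex5 (-0.43 ± 0.20, adjusted p = 0.204, limma) or Pex6 (0.42 ± 0.17, adjusted p = 0.147, limma). With run as a covariate Pex6 passed, at 0.58 (adjusted p = 0.00937, limma), and Pxmp2 did not, at -0.88 (adjusted p = 0.0773, limma). Without the 20% animals of the second run Pxmp2 did not pass either (-0.70, adjusted p = 0.124, limma), while Pex6 (0.66, adjusted p = 0.0292, limma) and Pex11a (1.99, adjusted p = 0.0408, limma) did.

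Between the times on 5% protein, 1 member of 9 was called, against 8.29% of all genes (4.15% higher and 4.13% lower at 4 weeks). Pxmp2 had a median of 9.13 at 4 weeks, against 10.07 at 1 week, and was lower at 4 weeks, by -0.64 ± 0.17 (adjusted p = 0.0200, limma). The call was lost without animal 32 or 59 of 4 weeks or animal 54 of 1 week (adjusted p from 0.0501 to 0.0609, limma), and with run as a covariate (-0.64, adjusted p = 0.0529, limma). Pex11a and Pex14 differed by 0.95 ± 0.36 and 0.24 ± 0.08 and did not pass (adjusted p = 0.111 and 0.0756, limma). With run as a covariate both passed, at 1.34 and 0.31 (adjusted p = 0.0303 and 0.0333, limma), as did Pex6 at 0.28 (adjusted p = 0.0474, limma). No run holds both times, so no comparison of times, on either diet and with or without this covariate, can part time from run. The fit with run as a covariate sets the first run against the second. That holds for its Pxmp2 value too. On 5% protein Pex11a averaged 9.10 in the first run and 7.71 in the second. It averaged 8.42 in the third run (1 animal) and 8.36 in the fourth. On 20% protein limma called 0 members, against 2.52% of all genes (1.02% higher and 1.5% lower at 4 weeks), and 2 had an unadjusted p below 0.05, Pex6 at -0.29 ± 0.12 and Pex19 at -0.21 ± 0.08. The times overlapped for every member on both diets, while 3.75% of all genes on 5% and 1.95% on 20% protein did not overlap.

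Set over all 4 groups, the members differed in level, in spread and in the order of the groups. Pex11a averaged 8.99 ± 0.87 on 5% and 7.83 ± 0.54 on 20% protein at 4 weeks, and 8.03 ± 0.45 on 5% and 8.33 ± 0.80 on 20% protein at 1 week (SD, n = 6 each, as in this paragraph). The long 5% diet thus held the highest mean, while the ranges of all 4 groups overlapped. Pxmp2 averaged 9.30 ± 0.41 and 10.18 ± 0.23 on 5% and 20% protein at 4 weeks, and 9.95 ± 0.26 and 9.92 ± 0.31 on 5% and 20% protein at 1 week. Pex5 averaged 8.32 ± 0.26 and 8.76 ± 0.26 at 4 weeks, and 8.60 ± 0.20 and 8.61 ± 0.28 at 1 week, with 5% before 20% protein each time. Both genes thus had their lowest mean in the long 5% diet and their highest in the long 20% diet. Pex14 averaged 8.27 ± 0.19 on 5% and 7.94 ± 0.10 on 20% protein at 4 weeks, and 8.04 ± 0.15 on 5% and 7.80 ± 0.06 on 20% protein at 1 week. It was the one member among those called at 4 weeks with the same sign and a similar size at 1 week, and its change of difference with time was 0.09 ± 0.12 (adjusted p = 0.700, limma).

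The membrane insertion genes had their highest means in 20% protein at 1 week. Pex3 averaged 8.47 ± 0.14 on 5% and 8.60 ± 0.27 on 20% protein at 4 weeks, and 8.35 ± 0.35 on 5% and 8.89 ± 0.21 on 20% protein at 1 week. Pex19 averaged 9.10 ± 0.15 on 5% and 9.19 ± 0.11 on 20% protein at 4 weeks, and 9.15 ± 0.13 on 5% and 9.40 ± 0.17 on 20% protein at 1 week. Pex16 averaged 10.33 ± 0.14 on 5% and 10.44 ± 0.11 on 20% protein at 4 weeks, and 10.41 ± 0.06 on 5% and 10.55 ± 0.17 on 20% protein at 1 week. All 3 had a lower mean on 5% protein at both times, and of these 6 differences only that of Pex3 at 1 week passed. Pex2 averaged 8.59 ± 0.09 on 5% and 8.57 ± 0.18 on 20% protein at 4 weeks, and 8.75 ± 0.12 on 5% and 8.62 ± 0.11 on 20% protein at 1 week, and it passed in no comparison. Pex6 averaged 9.90 ± 0.12 on 5% and 9.61 ± 0.22 on 20% protein at 4 weeks, and 9.77 ± 0.22 on 5% and 9.90 ± 0.27 on 20% protein at 1 week. It also differed between the runs of the 20% animals at 1 week, by 0.47 ± 0.10 for the fourth minus the second (adjusted p = 0.00526, limma). It was the 1 member of 9 called there, beside 742 genes higher and 1126 lower of all 17245.

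The promoters of the 2 genes with the largest opposite differences at 4 weeks are shown to set their letters side by side. They are the 250 bases before the annotated start, from RefSeq on GRCr8, the rat genome build, which matched 7 of the 9 genes by gene ID and did not hold Pex2 or Pex6. Pex11a is read at chr1:143096492-143096741 on the minus strand and Pxmp2 at chr12:52053701-52053950 on the plus strand. Capitals mark GGGCGG, the GC box, and CCAAT, the CCAAT box, on either strand.
Pex11a: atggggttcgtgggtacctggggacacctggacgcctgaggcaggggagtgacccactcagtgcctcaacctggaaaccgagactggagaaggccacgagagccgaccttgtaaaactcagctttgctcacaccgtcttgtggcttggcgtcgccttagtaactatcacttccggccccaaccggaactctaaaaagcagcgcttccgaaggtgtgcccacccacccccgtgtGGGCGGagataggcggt
Pxmp2: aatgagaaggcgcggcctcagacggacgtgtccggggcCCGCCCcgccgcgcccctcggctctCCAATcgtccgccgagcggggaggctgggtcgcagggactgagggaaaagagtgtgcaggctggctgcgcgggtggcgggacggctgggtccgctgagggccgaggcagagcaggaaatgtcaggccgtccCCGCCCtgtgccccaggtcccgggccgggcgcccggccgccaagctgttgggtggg

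In Pex11a the GC box begins 17 bases before the start, and in Pxmp2 GC boxes begin 212 and 56 bases before it and the CCAAT box 187 bases before it. A GC box was found in 5 of the 7 promoters and in 30.5% of 33469 rat promoters of the same length, and a CCAAT box in 3 of 7 and 34.0%. AGGTCA followed after 1 base by AGGTCA, a direct repeat bound by PPARa with its partner RXR, was in 0 of 7 and in 0.0508% of all. The single AGGTCA, which the repeat contains, was in 0 of 7 and 14.1%. TGATGNAA, a core of the element bound by ATF4, was in 0 of 7 and 3.4%. These windows are short, and a missing match says only that the letters are not in them. The bases were 60.0% G or C in Pex11a and 74.4% in Pxmp2, against a median of 51.2%. In the RefSeq gene order Pex11a lies next to Plin1, a lipid droplet coat gene, and in the mouse the 2 genes are known to share a PPARa element. Plin1 differed by 0.20 ± 0.16 at 4 weeks (adjusted p = 0.429, limma).

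Some members followed each other from animal to animal. Over the 24 arrays 36 pairs were compared, and the pairs named here were picked for their correlations. Pex5 and Pxmp2 had a Pearson r of 0.896 and a Spearman rho of 0.92, each with a permutation p = 1e-05, the smallest that 100000 permutations can give, and 3.60e-04 adjusted over the pairs (two-sided). Without the 2 arrays farthest from the median of Pex5 the r was 0.873. It lay between 0.836 and 0.965 within the 4 groups of 6 animals, and between 0.922 and 0.946 within the 4 runs. Pex3 and Pex19 had an r of 0.733 and a rho of 0.705 (permutation p = 4e-05 and 1.40e-04, adjusted 7.20e-04 and 0.00252), and an r of 0.666 without the 2 arrays farthest from the median of Pex3. Within groups their r was 0.816 in 5% protein at 4 weeks, 0.862 in 20% at 4 weeks, 0.202 in 5% at 1 week and 0.941 in 20% at 1 week. Pex3 and Pex14 ran against each other, with an r of -0.592 and a rho of -0.693 (permutation p = 0.00208 and 2.90e-04, adjusted 0.0229 and 0.00348), and -0.619 without the 2 farthest arrays. That sign did not hold in every group, with -0.631 in 5% at 4 weeks, -0.387 in 20% at 4 weeks, -0.795 in 5% at 1 week and 0.493 in 20% at 1 week. The values of a pair share an array, so differences between arrays enter both. The permutations shuffled all 24 arrays without regard to group or run, so differences between groups and runs also enter these p-values.

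**Figure D4:**
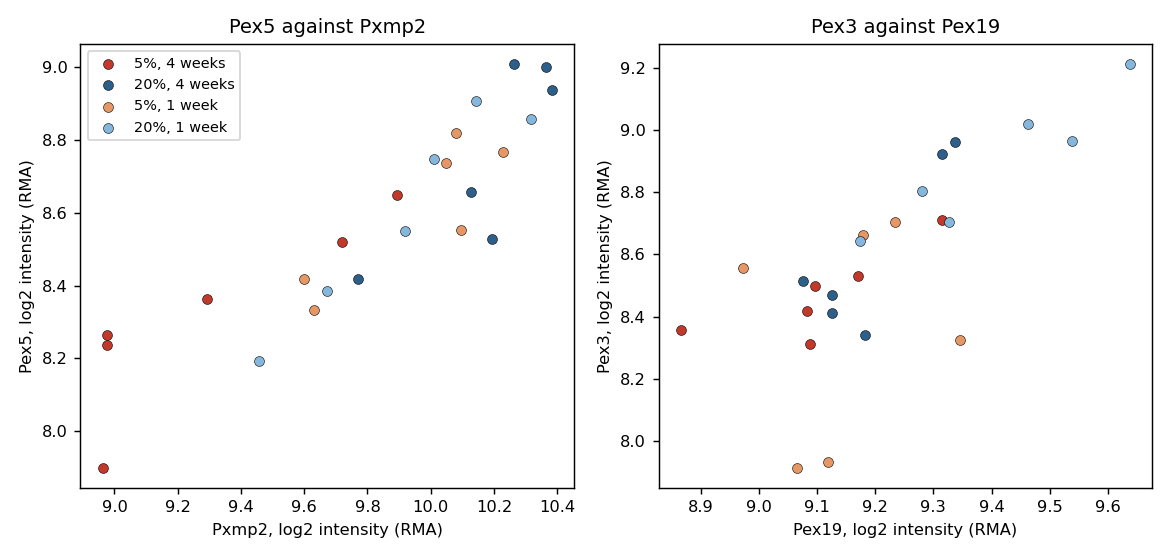
Log2 intensity of Pex5 against Pxmp2 (left) and of Pex3 against Pex19 (right), with 1 point per animal coloured by group. The Pex5 and Pxmp2 points lie along 1 line in all 4 groups (r = 0.896, n = 24), and the 4 animals with the lowest Pxmp2 are all on 5% protein at 4 weeks, while the other 2 of that group lie among the remaining animals.

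The genes whose values over the 24 arrays were most like a member's are given as a description. For Pxmp2 they were Itih3, Micos13 and F2 (r = 0.958, 0.955 and 0.938), and for Pex5 Glrx5, Rdh7 and Spr (r = 0.911, 0.909 and 0.896). For Pex11a they were Mlycd, Crat and Vrk3 (r = 0.830, 0.817 and 0.811). For Pex14 they were Mapk8ip3, Tcf20 and Itga7 (r = 0.837, 0.832 and 0.817), and for Pex3 Rsu1, Ciao2a and Ppih (r = 0.890, 0.874 and 0.865). The r given for Pxmp2 and for Pex5 were at or above the 0.896 between these 2 genes. Those given for Pex3 were above its 0.733 with Pex19. The likeness of these member pairs is thus not particular to the members.

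Other genes of the peroxisome were listed by role, and 57 of 71 were measured. At 4 weeks 11 of them rose and 17 fell, with a median difference of -0.0005, beside 13.4% and 12.4% of all genes and a median of -0.01. At 1 week limma called 0 higher and 3 lower, Hao2 (-2.79 ± 0.63), Gstk1 (-0.53 ± 0.13) and Hao1 (-0.44 ± 0.11, named after its value was seen since the count is small), all matrix enzymes, beside 1.86% and 2.44% of all genes.

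Among the 5 measured division partners at 4 weeks, Mff, which recruits the fission dynamin, rose by 0.30 ± 0.07, and Fis1, another fission adaptor, fell by 0.44 ± 0.14. Of 4 other peroxins of import, Pex13, which docks the receptor beside Pex14, fell by 0.30 ± 0.09. Of 5 genes of receptor recycling, Trim37, a ligase that stabilises Pex5 in human cells, rose by 0.63 ± 0.15, and Usp9x, a deubiquitinase of Pex5, fell by 0.22 ± 0.06. Of 6 other membrane proteins, Abcd2, which carries very long fatty acyl groups inward, rose by 2.15 ± 0.40. Limma called 0 of 3 pexophagy genes and 0 of 2 matrix proteases. These counts by role stand beside 25.8% of all genes called in either direction, and with so few genes per role a difference in share was not tested.

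The cargo of the Pex5 route moved both ways at 4 weeks. Of 27 measured PTS1 enzymes 7 rose and 12 fell, with a median of -0.21, beside 13.4% and 12.4% of all genes. The smallest p among falls were those of Hao1 (-0.83 ± 0.11), Hao2 (-4.82 ± 0.63) and Acox2 (-1.35 ± 0.18). Among rises they were those of Nudt7 (0.90 ± 0.15), Crat (1.78 ± 0.34) and Crot (1.14 ± 0.23). Crat averaged 10.16 on 5% and 8.38 on 20% protein at 4 weeks, against 9.77 and 9.76 at 1 week. Of 2 measured PTS2 enzymes, which enter through Pex7, Phyh of phytanic acid breakdown fell by 0.60 ± 0.15. Of 3 regulators Ppargc1a, a coactivator of PPARa, rose by 1.56 ± 0.28. Ppargc1a averaged 8.36 on 5% and 6.80 on 20% protein at 4 weeks, against 8.49 and 7.85 at 1 week. Rxra, the partner of PPARa, fell by 0.48 ± 0.11 at 4 weeks, while Ppara differed by 0.05 ± 0.21.

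**Figure D5:**
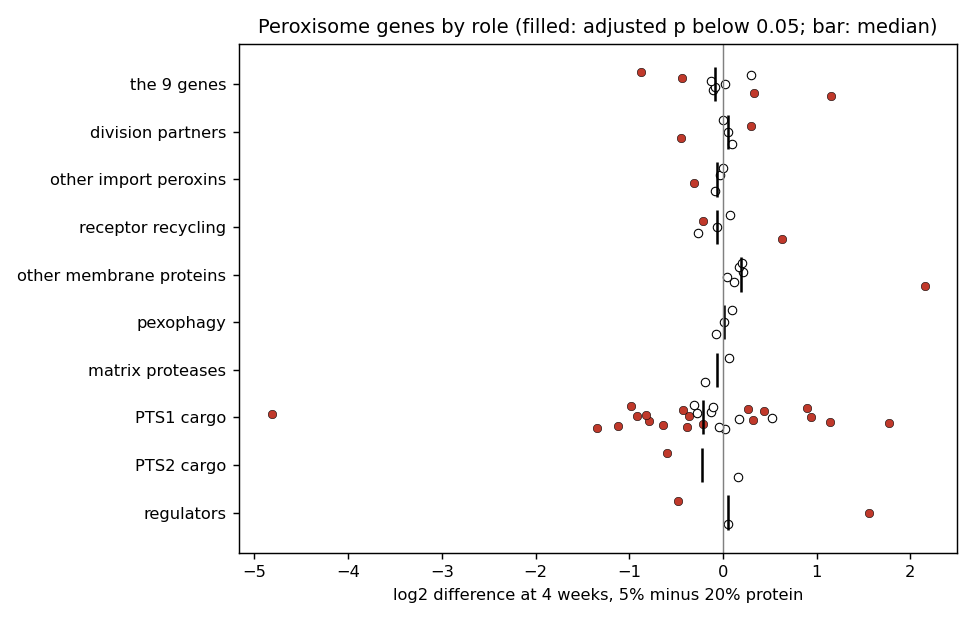
Difference between diets at 4 weeks for each measured peroxisome gene, by role. Filled points passed limma's test over all genes, and the vertical bars are medians. Every role except pexophagy and matrix proteases has at least 1 filled point, and the PTS1 cargo spreads from -4.82 to 1.78.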

How the data were processed

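Liver RNA of 24 rats was hybridised to Affymetrix whole-transcript arrays, 1 colour, biotin label, per the labels. The deposited values are intensity after RMA on the unlogged scale, per the labels. RMA is named in the submitters' processing notes, and its version and any filter are not given in the sources used here. RMA gives no detection call, so no detection limit is stated, and the number of arrays limits the precision. Of 29214 probe sets, 18644 pair with 1 symbol, 962 with several and 9608 with none. Single-symbol probe sets were kept, the one of highest mean per gene. Log2 values of 17245 genes were fitted with limma 3.58.1 (lmFit and eBayes, R 4.3.3) as 4 group means, with 20 residual and 3.95 prior degrees of freedom. P-values are two-sided and adjusted over all genes. The fit was tested on simulated data. Correlations and their permutation p used numpy 2.4.6 and scipy 1.17.1. Over all genes, standard errors had a median of 0.10.

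Named genes were all 9 members, at most 3 called genes per role and direction at 4 weeks and 2 at 1 week, and the 3 genes most like each called member. The members and lists were chosen with earlier results of these data known. A list by protein ending was not analysed here. Alternatives were normalization, offset, probe set choice, filter, variance model, samples fitted, title position, run, and each animal left out. Leaving out the 20% animals of either run at 1 week was chosen after seeing the data.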

Additional observations from a re-analysis of the deposited data

Results flagged for a closer look

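Of 36 combinations of gene and group examined, 2 had an animal far from the other 5 by Dixon's test, and chance gives such a flag in about 1 group in 20. In Pex11a on 20% protein at 4 weeks, animal 30 had 6.80, against 7.76 to 8.27 in the others. In Pex16 on 5% protein at 1 week, animal 76 had 10.53, against 10.36 to 10.41 in the others. The diet difference of Pxmp2 changed with time by limma's test of the difference, by -0.91 on the log2 scale.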

How the results depend on the processing

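No member that was called changed sign under any alternative. Besides the animals left out, 603 values of members under other settings gave 15 lost and 10 gained calls, and 17 uncalled values changed sign. For 1080 values with 1 animal left out these counts were 20, 5 and 15. The cause was not tested. At 4 weeks the 4 called members gave way to 2 in the first run alone, Pex11a and also Pex6, which is not among the 4. The third run alone has 1 animal on 5% protein, so no count is given for it. With 1 animal left out the count was 3 to 4. At 1 week the 1 called member became 0 in each run alone, in the 2 groups alone, with title row as a random block, and without the 20% animals of either run, and 0 to 2 with 1 animal left out. Diet by time gave 2 in place of 1 without the 20% animals of the second run, Pex6 and Pex11a, when Pxmp2 did not pass (-0.70, adjusted p = 0.124, limma), and 0 to 2 with 1 animal left out. With run as a covariate it gave Pex6 (0.58, adjusted p = 0.00937, limma) in place of Pxmp2 (-0.88, adjusted p = 0.0773, limma). On 5% protein 4 weeks minus 1 week gave 3 with run as a covariate in place of 1, namely Pex6, Pex11a and Pex14 without Pxmp2. No run holds both times, so that fit sets the first run against the second. The count was 2 with array weights, Pex11a and Pxmp2, and 0 to 2 with 1 animal left out. On 20% protein 4 weeks minus 1 week gave 0 throughout. Over all genes, calls at 1 week ranged from 336 (title row as a block) to 1464 (the fourth run alone) beside 741. At 4 weeks, leaving aside the third run alone, they ranged from 2734 (the first run alone) to 5028 (array weights) beside 4455. With every probe set tested, 6457 of 29214 probe sets passed at 4 weeks, which is not a count of genes. For diet by time, calls ranged from 486 (run as a covariate) to 1801 (20% animals of the fourth run at 1 week left out) beside 991. For time on 20% protein they ranged from 58 (run as a covariate, the first run against the second) to 678 (array weights) beside 435. With 1 animal left out, calls in the same order ranged from 418 to 779, 3992 to 4515, 579 to 1371 and 264 to 549. For time on 5% protein they ranged from 789 to 1655 with 1 animal left out, beside 1429. Under the other settings that count ranged from 1255 (run as a covariate, the first run against the second) to 1891 (array weights). No paired analysis was possible because each animal number in the titles belongs to a single group.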
